A study of Mus musculus with 8 samples.

Results

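The T-cell receptor alpha/delta locus of the mouse was followed across 8 DNA samples by array comparative genomic hybridisation, a method that weighs the amount of each stretch of DNA in a sample against a normal reference. All probes placed between 52.3 and 55.5 Mb of chromosome 14 (build mm9) were taken, which gave 398 of the 235402 probes of the array. Of these, 171 lay in the receptor locus itself, from 53.0 to 54.85 Mb, and the others lay in the flanks. The probes were taken by position alone, but the region was chosen with earlier results of these data known. The array files name no genes, so positions are given without an exon or intron.

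All 8 DNAs came from Balb/c mice that expressed SEC31A-JAK2, a fusion containing the tyrosine kinase JAK2, and bone marrow transplantation is the growth condition the labels give. T-lymphoblastic lymphoma (T-LBL) arose in 3 primary recipients, M7 (spleen), M9 (spleen) and M12 (neck lymph node), which are replicates 1, 2 and 3 of their group. M10 (bone marrow) had myeloid hyperplasia and is the 1 sample of its kind. The 4 secondary T-LBL, M12.49 (pancreas), M12.50 (neck lymph node), M12.52 (pancreas) and M12.53 (pancreas), were derived from mouse 12 and are replicates 1 to 4. With M12 they form a lineage of 5 tumours. Tissue thus differs between and within the groups. Every array used a wild-type Balb/c mouse without the fusion as its normal reference. The vector, the ages of the mice and the tumour content of each tissue are not given in the sources used here, and in DNA of a whole tissue a loss in some cells and a smaller loss in all cells cannot be told apart.

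A T cell builds its receptor genes by cutting and joining germline DNA. In the alpha chain, a variable (V) segment is joined to a joining (J) segment and the DNA between them is cut out. The delta diversity, joining and constant segments lie between the alpha V and alpha J segments, so that joining an alpha V to an alpha J removes them from that chromosome. Each chromosome of a cell can be joined at other segments, so a clone carries its own pair of deletions, whereas cells outside the T lineage normally keep the locus in germline form.

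In the RefSeq gene table, which is on assembly GRCm38.p6 and was used for names and order only, the locus runs from Trav1 to Trac. It held 130 alpha V segments (Trav), 40 of them named as d copies and 34 as n copies of another V segment, and 6 delta V segments (Trdv). The alpha V segments were followed by 2 delta diversity segments (Trdd), 2 delta joining segments (Trdj), the delta constant gene Trdc, the delta V segment Trdv5, 60 alpha joining segments (Traj61 to Traj1) and the alpha constant gene Trac. Dad1 follows Trac. On the array, the V segments come first, the delta segments next, and the alpha J and C segments at the far end.

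Ratios are log2 of sample over reference signal, centred on each array's autosomal median, so 0 stands for the reference amount. A value of -1 (50% of the reference) would be reached if 1 of 2 copies were lost in every cell. Errors of a single array are standard errors (SE) over its probes, which are not replicates of the tumour.

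Probe coverage and noise set the limits. The noise SD between neighbouring probes was 0.47 on M7 and 0.43 on M12.52, against 0.22 to 0.28 on the other arrays. The reference signal was well above background for 55.2% of autosomal probes on M7 and for at least 98.7% on the others. Within the locus the probes were unevenly spread. The middle of the V cluster, 53.6 to 54.2 Mb, held 23 probes, and no probe lay in the 203 kb between 53759064 and 53961688. No reference or sample signal of the region was saturated.

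Signal was lost within the locus in all 7 lymphomas, to very different depths, and no loss was called in either flank. M7 had lost part of the signal over 426 kb in the later part of the locus. M9 had lost part of it over 473 kb, which by the ratio reached further towards the J and C side. The 5 tumours of the mouse 12 lineage had lost most of the signal over 1403 to 1626 kb. M10, the myeloid sample, had no called segment in the region. A segment was called as a loss when its mean was -0.25 or lower over at least 5 probes. The share of all autosomal probes inside called losses was 0.083% on M7, 0.0289% on M9, 0% on M10, 0.134% on M12, 0.141% on M12.49, 0.13% on M12.50, and 0.129% on both M12.52 and M12.53. Against that background, the share of the region's own probes inside a loss was 14.8% in M7, 16.1% in M9, 29.0% for M12, 30.9% for M12.49, 30.2% for M12.50, 29.7% for M12.52 and 30.9% for M12.53. On M9 the 64 probes of this loss were all the autosomal probes that were called lost.

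**Figure D1:**
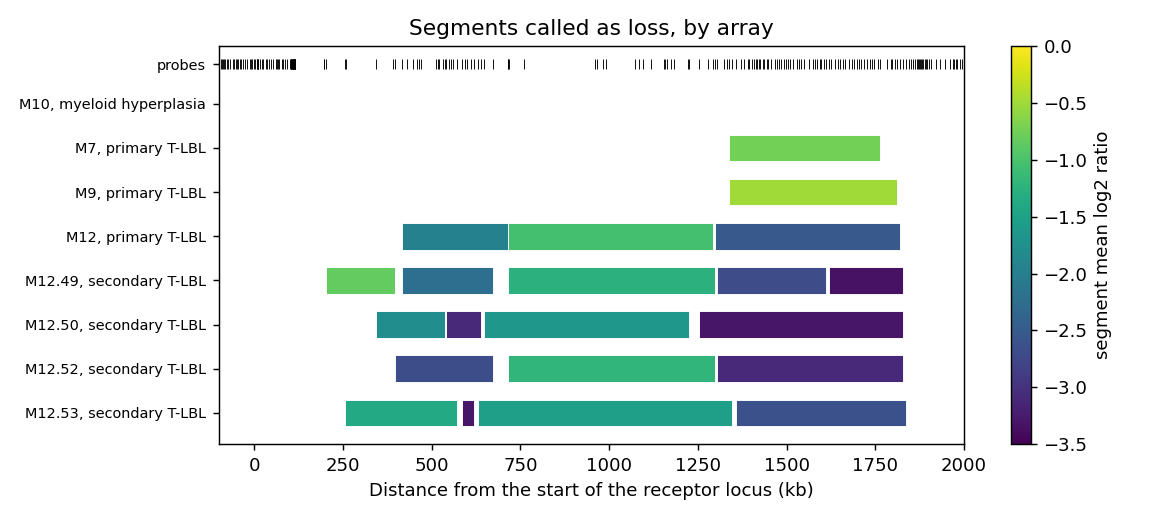
Segments called as loss on each array, drawn against distance from the start of the receptor locus in kb and coloured by mean log2 ratio, with the position of every probe as a tick at the top. White gaps between bars of an array are stretches between 2 neighbouring probes. M10 has no bar, M7 and M9 begin at the same probe, and the 5 arrays of the mouse 12 lineage begin up to 1136 kb earlier.

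M7 had 1 loss, chr14:54337752-54763495, with a mean of -0.74 (SE 0.09, 57 probes). M9 had 1 loss, chr14:54337752-54810474, with a mean of -0.50 (SE 0.04, 64 probes). By the ratio both losses started at the same probe, and the last probe before it, ending at 54332051, read 0.09 on M7 and -0.09 on M9. The first probe inside read -1.23 on M7 and -0.35 on M9. At this spacing the starts of the 2 losses are placed within the same 5.70 kb and cannot be told apart more finely.

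The far ends differed. On M7 the last probe inside the loss, ending at 54763495, read -0.56, and the next one, starting at 54783994, read 0.31. On M9 those probes read -0.61 and -0.30, and the segment went on to 54810474. The next probe on M9, starting at 54818532, still read -0.25, and the one after it read 0.06. The 6 probes from 54783994 to 54818591, called the J-side block here, averaged 0.13 on M7 (SE 0.23, 5 probes measured) and -0.34 on M9 (SE 0.03). The stretch before it, from 54337752 on, minus the J-side block was -0.87 (SE 0.25) on M7 and -0.17 (SE 0.06) on M9. With 1 array for each tumour these differences were not tested over tumours. The M7 loss was not called at a penalty of 12 in place of 6 or on the sample dye alone, although the sample dye still averaged -0.69 over it. The sample dye averaged -0.61 over the J-side block on M7, where the reference dye stood at -0.70 (log2) against the median of the 8 arrays, so the end of the M7 loss before that block rests on the ratio. On M9 the sample dye alone gave a loss from 53390264 to 54763495, with an earlier start and an earlier end than the ratio, and with normexp background correction no loss was called on M9.

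In the mouse 12 lineage the loss was called in several segments of different depth. On M12 it ran in 3 segments: chr14:53415714-53714134 with a mean of -1.97 (SE 0.16, 26 probes), chr14:53716349-54291569 with -1.04 (SE 0.23, 21 probes), and chr14:54298700-54818591 with -2.54 (SE 0.11, 68 probes). A deep V-side stretch, a shallower middle and a deeper far stretch thus followed each other in the primary tumour.

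In the 4 secondary tumours too, the middle was shallower than the far stretch. M12.49 had 5 segments. The first, chr14:53201304-53397486, averaged -0.84 (SE 0.15, 6 probes), and chr14:53415714-53673548 averaged -2.25 (SE 0.18, 25 probes). The middle, chr14:53714075-54298759, averaged -1.27 (SE 0.29, 23 probes). Beyond it, chr14:54304425-54612181 averaged -2.69 (SE 0.15, 42 probes) and chr14:54619859-54827341 averaged -3.34 (SE 0.14, 27 probes). On this array the depth grew in 2 steps towards the J segments at the main settings. With a penalty of 12 in place of 6 it had 3 segments, the lowest at -2.95. With the sample dye alone it had 4, the lowest at -2.98. In the 100 kb windows from 54.4 to 54.8 Mb, the M12.49 sample was well above background for only 16.7% to 38.5% of probes.

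M12.50 had 4 segments. They averaged -1.78 (SE 0.22, 14 probes) over chr14:53344285-53536539 and -3.11 (SE 0.42, 12 probes) over chr14:53541189-53640091. The middle, chr14:53648710-54223774, averaged -1.63 (SE 0.32, 21 probes), and the far stretch, chr14:54253650-54827341, averaged -3.30 (SE 0.15, 73 probes). Here the V-side stretch was as deep in part as the far stretch.

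M12.52 had 3 segments, with means of -2.69 (SE 0.20, 26 probes) over chr14:53397427-53673548, -1.21 (SE 0.33, 23 probes) over chr14:53714075-54298759, and -3.10 (SE 0.12, 69 probes) over chr14:54304425-54827341. M12.53 had 4 segments, with means of -1.38 (SE 0.13, 21 probes) over chr14:53255476-53570870, -3.30 (SE 0.32, 5 probes) over chr14:53585339-53619254, -1.54 (SE 0.19, 32 probes) over chr14:53629682-54345421, and -2.63 (SE 0.15, 65 probes) over chr14:54358152-54837072. At the main settings the middle segment was shallower than the far one on all 5 arrays of the lineage. With normexp background correction M12, M12.50, M12.52 and M12.53 had 1 loss segment each and M12.49 had 0, so no separate middle was called.

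In the shallow middle, part of the probes were dim in the reference. The reference was well above background for 81.0% of the middle segment's probes in M12, 82.6% for M12.49, 85.7% for M12.50, 78.3% for M12.52 and 90.6% for M12.53. Over those probes alone the middle segment averaged -1.32 for M12, -1.69 for M12.49, -1.84 for M12.50, -1.78 for M12.52 and -1.57 for M12.53. It stayed shallower than the far segment on each array. The part of probe dimness, and of probes that match several V copies, in the remaining gap was not tested.

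To compare tumours over the same probes, the locus was divided into 7 blocks at the segment ends of M7, M12, M12.49, M12.50 and M12.53. The blocks were chosen after the segments had been seen and are described without a test.

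**Figure D2:**
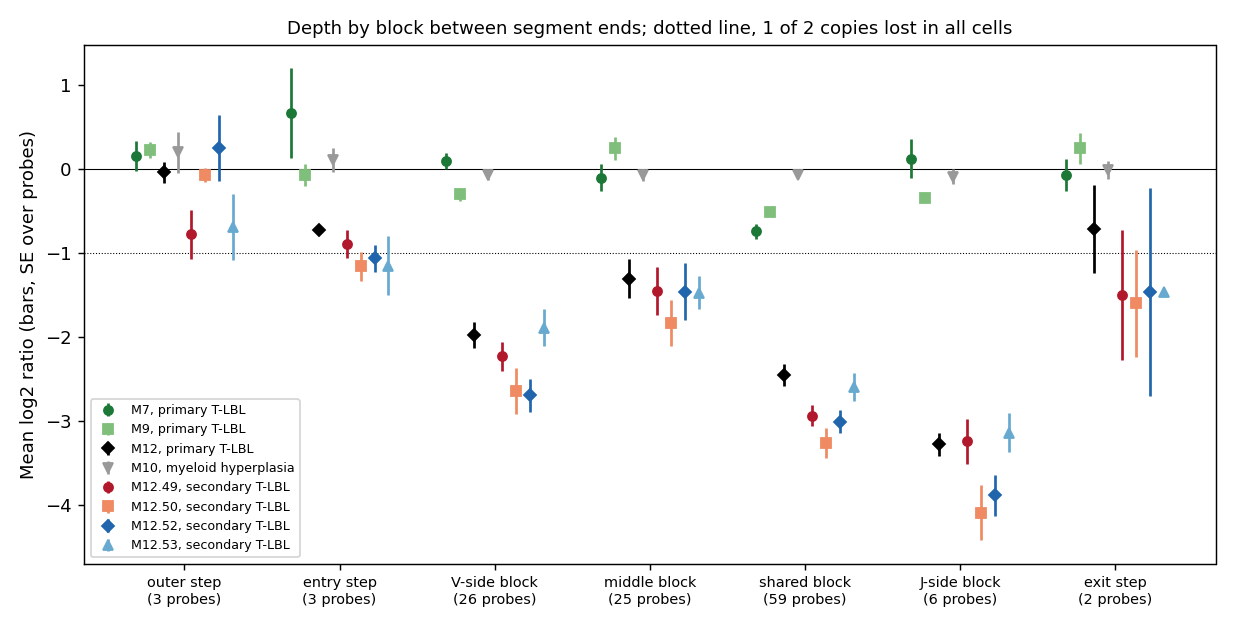
Mean log2 ratio of each block on each array, with bars for the SE over probes; blocks run from the V side on the left to the J and C side on the right. The shared block is low in all 7 lymphomas, the V-side block is at -1.89 or lower in the mouse 12 lineage, and M10 stays within 0.20 of 0 throughout.

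The shared block is the stretch lost in all 7 lymphomas, chr14:54337752-54763495, with 59 probes over 426 kb in the later part of the locus. Which V or delta segments lie in the block was not determined. Its mean was -0.74 on M7 (SE 0.09), -0.51 on M9 (SE 0.05) and -0.07 on M10 (SE 0.03). It was -2.45 on M12 (SE 0.13), -2.93 on M12.49 (SE 0.13), -3.26 on M12.50 (SE 0.17), -3.01 on M12.52 (SE 0.14) and -2.59 on M12.53 (SE 0.17). The lineage did not overlap with M7 or M9, and both of these lay below M10. As a share of the reference signal, 59.9% was left on M7 and 70.0% on M9, above the 50% of 1 copy lost in all cells. In the lineage M12 kept 18.3%, M12.49 13.1%, M12.50 10.4%, M12.52 12.4% and M12.53 16.6%, all below 50%.

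So little sample DNA bound these probes in the lineage that many were at background. In the shared block the median processed sample signal was 130 for M12, 116 for M12.49, 95.6 for M12.50, 102 for M12.52 and 178 for M12.53, with reference medians of 771, 1030, 1129, 1078 and 942 in the same order. On M10 the medians were 1047 (sample) and 1116 (reference). The sample was well above background for 79.9% of the block's probes in M12, 27.1% for M12.49, 62.7% for M12.50, 13.6% for M12.52 and 69.5% for M12.53. Each dim sample probe below its array's lowest signal that passed as well above background was then raised to that floor. The reference was then 5.0-fold higher than the sample for M12, 4.75-fold for M12.49, 7.57-fold for M12.50, 3.71-fold for M12.52 and 5.05-fold for M12.53. These values still exceed the 2-fold of 1 lost copy, but a dim probe can lie above the floor, so they are no strict bounds. With normexp background correction the late V zone, which overlaps this block, read -0.69 on M12, -0.09 on M12.49 and -0.74 on M12.52. It read -1.21 on M12.50 and -1.25 on M12.53. The order of the 5 tumours is not settled by these signals.

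The V-side block, chr14:53415714-53714134, separated the lineage from the spleen tumours. Its 26 probes averaged -1.97 on M12 (SE 0.16), -2.23 on M12.49 (SE 0.18), -2.64 on M12.50 (SE 0.27), -2.69 on M12.52 (SE 0.20) and -1.89 on M12.53 (SE 0.22). On M7 the mean was 0.09 (SE 0.09), on M10 -0.07 (SE 0.06), and on M9 -0.30 (SE 0.08). The M9 value was lower than that of M10 although no segment was called there, and 81.2% of the reference signal was left. The shared block minus the V-side block was -0.71 to -0.31 in the lineage, with SEs of 0.20 to 0.32.

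The J-side block, chr14:54783994-54818591, was the deepest block in the lineage, with means of -3.28 on M12 (SE 0.14), -3.24 on M12.49 (SE 0.26), -4.09 on M12.50 (SE 0.33), -3.88 on M12.52 (SE 0.24) and -3.14 on M12.53 (SE 0.23). Only 5.87% of the reference signal was left on M12.50 and 11.4% on M12.53, the lowest and highest of the 5. The reference was well above background for all of its 6 probes on these arrays. With dim sample probes raised to the floor, the reference was 9.70-fold higher than the sample for M12, whose dim probes already lay above that floor. It was 6.07-fold higher for M12.49, 13.1-fold for M12.50, 5.35-fold for M12.52 and 7.39-fold for M12.53.

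At both ends of the loss the lineage passed through probes of intermediate depth. On the V side, 3 probes between 53344285 and 53397486 (the entry step) averaged -0.72 on M12 (SE 0.05), -0.89 on M12.49 (SE 0.16), -1.16 on M12.50 (SE 0.17), -1.06 on M12.52 (SE 0.16) and -1.15 on M12.53 (SE 0.35). This corresponds to 60.6%, 53.8%, 44.9%, 48.0% and 45.0% of the reference signal, near the 50% of 1 copy. M9 and M10 averaged -0.07 and 0.11 there, and M7 averaged 0.67 (SE 0.54) with 1 of 3 reference spots well above background. The entry step began at or before 53344285 on all 5 arrays of the lineage by its values, although the segments of M12 and M12.52 were called from later probes.

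A further step outwards divided the lineage. The 3 probes between 53201304 and 53259853 (the outer step) averaged -0.78 on M12.49 (SE 0.29) and -0.69 on M12.53 (SE 0.39). They averaged -0.04 on M12 (SE 0.13), -0.07 on M12.50 (SE 0.08) and 0.25 on M12.52 (SE 0.40). The single probes differed between M12.49 and M12.53. The probe at chr14:53201304-53201363 read -1.32 on M12.49 and -0.01 on M12.53, while that at chr14:53259794-53259853 read -0.31 and -1.37. With 3 probes, the called starts of these 2 arrays lie further out than in the other 3 and do not coincide with each other. These outer starts depended on the settings: with the sample dye alone both arrays were called from 53344285, as was M12.50, and with a penalty of 12 M12.49 was called from 53415714 and M12.53 from 53259794.

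On the J and C side the signal rose over 4 probes. The last probe of the loss on M12, chr14:54818532-54818591, read -3.15 for M12, -3.28 for M12.49, -3.79 for M12.50, -3.59 for M12.52 and -2.74 for M12.53. The next, chr14:54827282-54827341, read -1.24, -2.28, -2.24, -2.70 and -1.48 in the same order. The probe at chr14:54837013-54837072 read -0.19 for M12, -0.72 for M12.49, -0.96 for M12.50, -0.22 for M12.52 and -1.45 for M12.53. From the probe at chr14:54843852-54843911 on, M12 (0.25), M12.49 (0.06), M12.50 (-0.12) and M12.52 (0.26) were near the reference, and M12.53 read -0.54. By the segment calls, the loss ended within the same 25.3 kb in all 5 tumours, close to the far end of the locus, where the last J segments and Trac lie in the gene order.

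**Figure D3:**
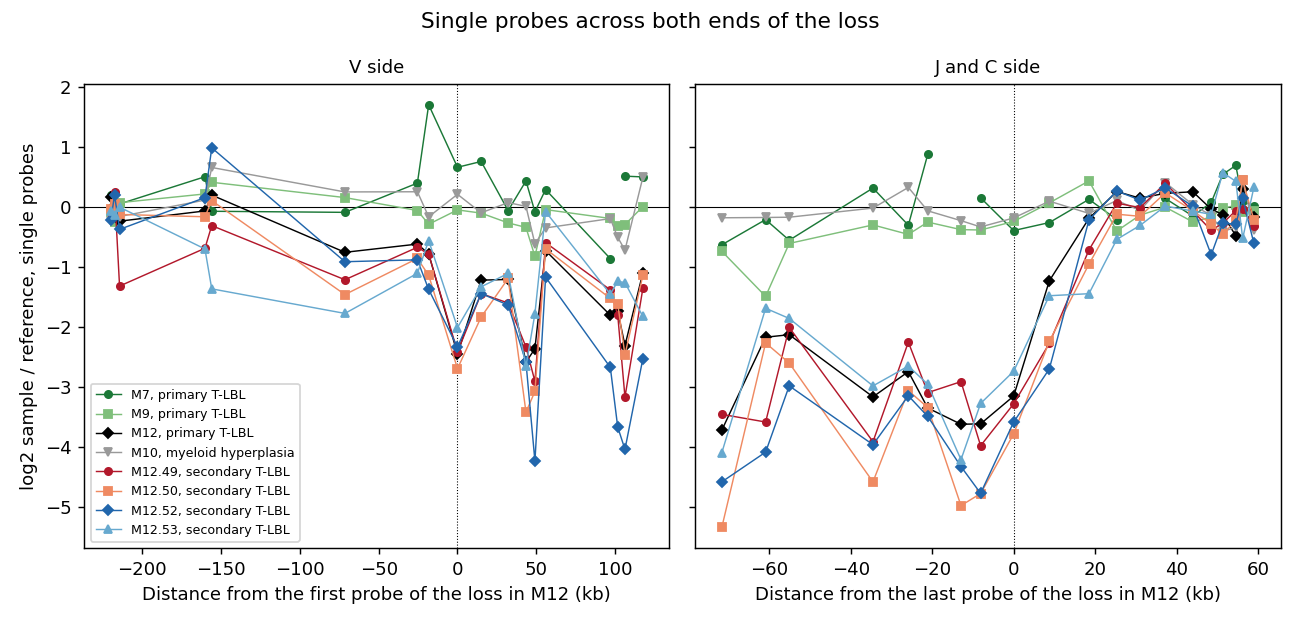
Single-probe log2 ratios at both ends of the loss, against distance in kb from the first (left) and last (right) probe of the loss called on M12. On the left the lineage falls below M9 and M10 before the first called probe of M12; on the right it climbs from between -2.74 and -3.79 at distance 0 to between -0.54 (M12.53) and 0.26 (M12.52) within 3 more probes.

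The 100 kb windows show the same profile at even spacing. Of the 32 windows of the region, 31 held probes and 26 held the 5 probes set as the minimum on every array. The lowest window was 54.7 to 54.8 Mb on M9 (-0.64, SE 0.09), M12 (-2.77, SE 0.19), M12.50 (-3.75, SE 0.32), M12.52 (-3.49, SE 0.19) and M12.53 (-2.98, SE 0.26). On M12.49 it was 54.6 to 54.7 Mb (-3.33, SE 0.25). On M7 the lowest was 53.7 to 53.8 Mb (-1.11, SE 0.39), whose 4 probes were all dim in the reference; among windows with 5 probes it was again 54.7 to 54.8 Mb (-0.91, SE 0.33). The highest window was 53.0 to 53.1 Mb, at the first V segments, on M12 (0.11, SE 0.06), M12.49 (0.10, SE 0.04) and M12.50 (0.10, SE 0.04), and its neighbour on M12.53 (0.07, SE 0.05). On M7 (0.67, SE 0.54), M9 (0.86, SE 0.38), M10 (0.20, SE 0.24) and M12.52 (0.25, SE 0.40) the highest window held only 3 or 4 probes.

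The windows were tested in limma over all 8 arrays and 17487 autosomal windows. Against the reference, the secondary T-LBL were lower in 11 of the 26 windows of the region at an adjusted p under 0.05, with none higher. Over all autosomes 25 windows were called, 0.143% of those tested and all lower, so 11 of the 25 lay in this region. The median difference of the region's 26 windows was -0.03, and that of all windows was -0.01, because 15 of the 26 lie in the flanks or the first V segments. The largest changes were in the windows from 54.7 Mb (-3.35, SE 0.26, limma adjusted p = 7.33e-05), 54.6 Mb (-3.12, SE 0.25, limma adjusted p = 9.56e-05) and 54.3 Mb (-3.02, SE 0.29, limma adjusted p = 0.000469). Each window was below -2.5 in every one of the 4 tumours. The 4 secondary tumours share 1 origin and are not independent. The fit also pools the spread within the primary and secondary groups, so these p-values do not measure that of the secondary tumours alone. With the origin mouse as a random block 4 windows of the region were called, with the reference required to be well above background on every array 6 of 21, and with normexp background correction 0. The window from 54.3 Mb lost its call with the origin block (-2.34), while those from 54.7 and 54.6 Mb kept theirs.

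M12 lay above all 4 secondary tumours in 6 of these 11 windows and among them in the other 5. M7, M9 and M10 lay above all 5 arrays of the lineage in all 11. M9 was below M10 in 9 of the 11 and M7 in 5.

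The primary T-LBL as a group were not called lower than the reference in any of the 26 windows (limma, 0.00572% of all windows called lower), and 7 windows had an unadjusted p under 0.05, all lower. The spread within the group was wide: in the window from 54.7 Mb M12 stood at -2.77 beside -0.91 on M7 and -0.64 on M9. Secondary against primary T-LBL gave 0 called windows in limma (0% of all windows), and 11 windows of the region had an unadjusted p under 0.05, all lower. Primary T-LBL against M10 also gave 0 (0% of all windows), with 1 region window, from 54.7 Mb, at an unadjusted p under 0.05. M10 stands alone in that comparison, and its spread was taken to be that of the lymphoma groups. The outcome of the comparison with the primary group turned on M12: without it, 11 windows of the region were lower in secondary than in primary T-LBL (15 of all windows). With scan as a block 10 were, but M12 and M7 were each alone in their scan, so that fit compared M9 with M12.49 and M12.52 and left M12 out as well.

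The late V zone, 54.2 to 54.7 Mb, was compared between the groups as a single value. The mean of its 59 probes was -0.52 on M7, -0.39 on M9 and -2.33 on M12, and the secondary tumours stood at -2.74 (M12.49), -3.10 (M12.50), -2.80 (M12.52) and -2.44 (M12.53). M10 stood at -0.06. Every secondary tumour was below every primary tumour, with M12 closest to them. The group means were -1.08 ± 1.09 (SD, n = 3) and -2.77 ± 0.27 (SD, n = 4), a difference of -1.69. The two-sided exact permutation test over the 35 assignments gave p = 0.0286, which is the smallest p this design allows. It takes the 7 tumours as exchangeable, although M12 and the 4 secondary tumours come from 1 mouse, so only 3 origins are behind it. The zone was also chosen with earlier results of these data known, so this p is a description and no support. Within the scan that held both groups, the difference was -2.38 (M12.49 and M12.52 against M9), and within the slide that did, it was -2.71 (M12.50 against M9). On the slide shared by M7 and M10, M7 minus M10 was -0.46 in this zone. The p rose to 0.0571 with medians over probes, with the reference filter or with the sample dye alone, to 0.114 with dim sample signals at their floor and to 0.257 with normexp (exact permutation), and leaving out any 1 array leaves a design that cannot reach 0.05.

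Within the late V zone most probes of the lineage were low. On M12 50 of 58 probes were at -1 or lower, in M12.49 and M12.50 54 of 59, and for M12.52 and M12.53 53 of 59. On M7 it was 12 of 57, on M9 2 of 59 and on M10 0 of 59. Across autosomes the share at -1 or lower was 1.80% on M7, 0.876% on M9, 0.161% on M10 and between 0.0863% (M12) and 2.20% (M12.52) in the lineage. On M9, 53 of the 59 probes were below 0, against 34 of 59 on M10 and 50% of autosomal probes on M9. Few were at -1 or lower, so the M9 loss was shallow. It was called only from 54337752 on, and the window from 54.2 to 54.3 Mb averaged 0.19 on M9 (SE 0.31).

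The lowest probes of the zone over the lineage were those at chr14:54473550-54473609 (-3.84 for M12, -4.39 for M12.49, -4.66 for M12.50, -4.31 for M12.52 and -4.12 for M12.53), at chr14:54436787-54436846 (-3.14 on M12.49 to -5.69 on M12.53) and at chr14:54658857-54658916 (-3.31 on M12 to -5.07 on M12.50). The sample was not well above background at the first of them on any of the 5 arrays. The highest probes stood out inside the loss. The probe at chr14:54548741-54548800 read 0.48 for M12, -0.18 for M12.49, 0.12 for M12.50, 0.31 for M12.52 and 0.19 for M12.53, so it did not fall where its surroundings did. The probe at chr14:54416181-54416240 read between -0.42 on M12 and -1.07 on M12.53, and that at chr14:54563588-54563647 between -1.55 on M12.52 and 0.82 on M12.53.

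Over the 27 probes of the late V zone whose reference was well above background on every array, Pearson's r between 2 arrays of the lineage ran from 0.61 to 0.96 (median 0.79, 10 pairs). In the other 18 pairs it ran from -0.12 to 0.55 (median 0.13). In the V-side flank, over 65 probes with no called loss, the ranges were -0.28 to 0.84 (median 0.63) and -0.35 to 0.90 (median 0.20), and in the far flank, over 54 probes, the medians were 0.67 and 0.33. The lineage pairs thus also had the higher median where nothing was lost, but the pairs did not divide by lineage there. M12.53 correlated negatively with all other lineage tumours, at -0.28 to -0.15 in the V-side flank and -0.75 to -0.50 in the far flank. M10, outside the lineage, stood at 0.63 to 0.90 and 0.80 to 0.91 with the lineage tumours other than M12.53. M7 stood at -0.14 to -0.02 with every other array in the V-side flank. These are descriptions across probes, which share a reference DNA and their own hybridisation behaviour.

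By its mean ratio M12 was the shallowest of the lineage in the shared block, in the case of M12.53 by no more than the SE over its probes, but this order was not kept by other measures. On the sample dye alone M12 stood at -2.87 and M12.53 at -2.53. With dim sample signals raised to their floor M12 (-2.32) was lower than M12.49 (-2.25) and M12.52 (-1.89). In a stretch of chromosome 12, 107.3 to 109.3 Mb, that is also lost in the lineage, M12 averaged -0.63 (SE 0.03) and the secondary tumours -0.74 (M12.49), -0.90 (M12.50), -0.69 (M12.52) and -0.75 (M12.53). In the T-cell receptor beta zone (chromosome 6, 41.0 to 41.5 Mb) M12 averaged -0.60 (SE 0.06) and the secondary tumours -0.88 to -1.02. How much of each tissue was tumour was not measured, and its part in these depths was not tested. On M12 the reference dye in the shared block was 0.45 (log2) below the median of the 8 arrays, which makes the ratio less negative there.

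By zone means, the late V zone was deeper in the lineage than these zones. The late V zone minus the beta zone was -1.73 for M12 and between -2.22 and -1.5 in the secondary tumours. It was -0.08 in M7, -0.10 in M9 and, where neither was lost, -0.11 in M10. The gamma zone (chromosome 13, 19.2 to 19.5 Mb) averaged 0.12 on M7, -0.07 on M9 and between -0.25 and -0.34 in the lineage. There the lineage medians over probes were -0.08 to 0.05, but the lowest probe of each array read between -3.65 and -5.00. In the beta zone the lowest probes of the lineage read between -3.59 and -5.26. The means of both zones thus mix deep probes with others nearer the reference, and single probes there were as low as in the alpha/delta locus. In the beta zone 49.3% to 65.8% of the reference signal was left in the lineage, against 11.7% to 19.8% in the late V zone.

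**Figure D4:**
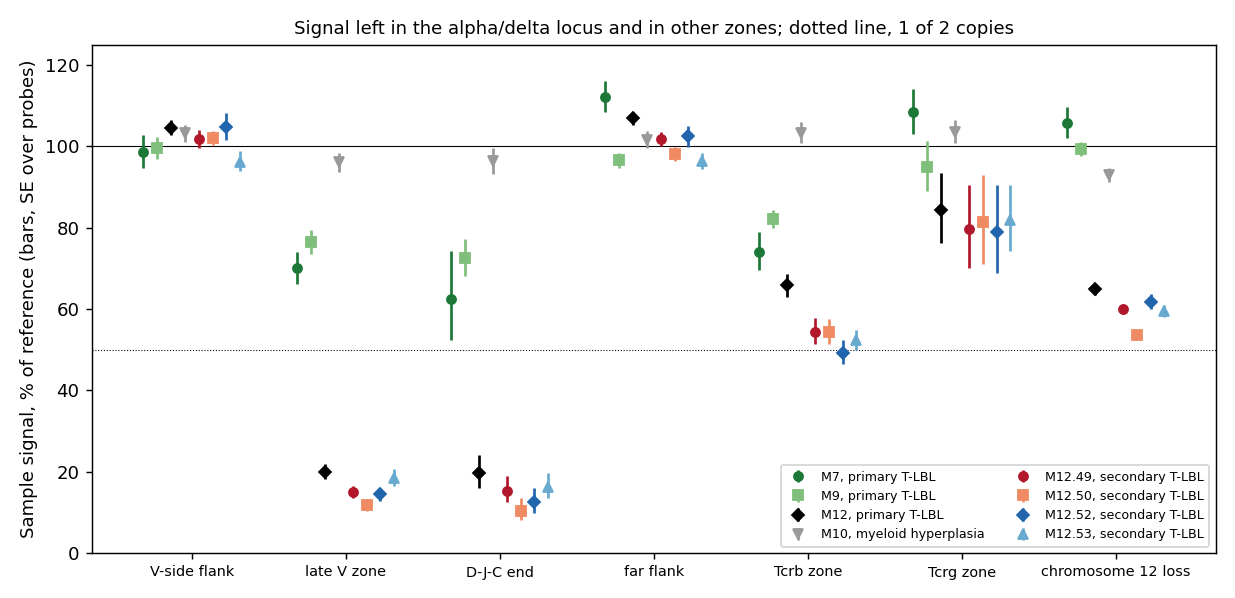
Sample signal as a percentage of the reference in zones of the alpha/delta region and in 3 other zones, with bars for the SE over probes and a dotted line at 50%. The mouse 12 lineage lies between 10.4% and 19.8% in the late V zone and the D-J-C end, between 49.3% and 65.8% in the beta zone, and between 96.2% and 107% in both flanks.

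The flanks kept their signal. The V-side flank, 112 probes, averaged between -0.06 (M12.53) and 0.07 (M12.52), and the far flank, 115 probes, between -0.05 (M12.53) and 0.17 (M7). No segment in either flank was called on any of the 8 arrays.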

How the data were processed

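DNA of 8 mice was measured on 2-colour Agilent arrays, sample in Cy5 and normal Balb/c DNA in Cy3, with no dye swap labelled. The authors deposited processed signal intensities, background-subtracted, spatially detrended and linearly dye-normalised per the file headers (Feature Extraction 10.5.1.1; 9.1.1 per the submitters' processing notes), and log10 ratios computed from them. Their medians lay between -0.00193 and 0.00789. Positions are mm9, and M12, deposited on mm8, took them by probe name.

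Control and outlier spots were left out, spots of a probe averaged, and log2 ratios centred on the autosomal median. Chromosomes were segmented by penalised least squares (penalty 6, at least 3 probes, merging under 0.15, winsorised at 3 SD from the running median over 11 probes). Windows of 100 kb with at least 5 probes were fitted in limma 3.58.1 (R 4.3.3) with 3 group means over 8 arrays, and adjusted by Benjamini-Hochberg over 17487 windows. limma and segmentation were tested on simulated data. Other work used Python 3.11.15, numpy 2.4.6, pandas 2.3.3 and scipy 1.17.1.

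By rule, the text names each array's segments, lowest and highest windows, the 3 windows of largest change, and probes beside segment ends or extreme in the late V zone. The region, its zones and this rule were chosen with earlier results of these data known; the blocks were set later still. Nothing says that arrays of a group are independent beyond their mouse. Probe sequences and an mm9 annotation were not used here. Alternatives covered signal, centring, probe filters, blocks, weights, segmentation settings and left-out arrays.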

Additional observations from a re-analysis of the deposited data

Results flagged for a closer look

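In the middle V zone, 53.6 to 54.2 Mb, M12.50 stood apart from the other secondary tumours. Its mean was -1.757, while the other 3 lay between -1.524 and -1.518; the SE over the zone's 23 probes was 0.27 to 0.32 on each of the 4 arrays. In the middle block, which overlaps that zone, M12.50 averaged -1.835 and the others -1.45 to -1.47 (25 probes). Both values are from overlapping probes of 1 array. M12.50 is also the only secondary tumour from a neck lymph node, the others being from pancreas. The part of tissue was not tested. M12.50 was not the lowest in the zone with medians over probes (-1.43, against -1.58 on M12.49), with the reference required to be well above background on every array (-1.68, against -1.93 on M12.52) or with the sample dye alone (-1.60, against -1.78 on M12.52). Among 18 groups of 4 values looked at, chance gives such a gap in about 1 of 20.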

How the results depend on the processing

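No paired analysis was possible because all 4 secondary tumours trace to 1 of the 3 primary mice, so that none pairs with M7 or M9. The region windows called in secondary T-LBL against the reference numbered 11, all lower. With reference signals well above background on every array 6 of 21 were called, with normexp 0, and with origin as a random block 4. The fit with array weights called 23, of which 15 were lower and the others higher. That fit did not converge and called 14703 windows in all. Array weights gave 6 for primary T-LBL against the reference and 6 against M10. Scan as a block, which leaves M9 as the only primary tumour, gave 10 for secondary against primary T-LBL. Leaving out each array gave 9 to 11 windows for secondary against the reference, 0 to 11 for secondary against primary, and 0 for the other comparisons. The late V difference was -0.48 with normexp (exact permutation p = 0.257), -1.70 with medians over probes (p = 0.0571, exact), -1.61 with the reference filter (p = 0.0571, exact), -1.53 with the sample dye alone (p = 0.0571, exact) and -1.22 with the sample floor (p = 0.114, exact). Leaving out each array gave -2.32 to -1.34, where the smallest possible exact p was 0.0667 or 0.1. Normexp, with its offset of 50, gave shallower values in the late V zone on all 8 arrays; on M12.49 the chromosome 12 zone went from -0.74 to -0.05 as the late V zone went from -2.74 to -0.09. The number of arrays with a called loss was 7, but 6 with penalty 12 and 6 with the sample dye alone (M7 was not called in either; the latter was chosen after seeing the data) and 5 with normexp (M9 and M12.49 were not called). The early V zone on M7, 0.13, turned to -0.0074 with the reference filter and -0.010 with the sample dye alone. The number of arrays, the dim reference on M7 and background-level sample signals limit the precision.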
